A study of Homo sapiens with 14 samples.

Results

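The regions described are the 617 RUNX1 peaks that lie at promoters of protein-coding genes in HL60 cells and that overlap, by at least 1 bp, a SKI peak in each of 3 SKI lists. They are 617 of the 5581 RUNX1 peaks listed (11.1%; 95% Wilson interval 10.3 to 11.9%) and 617 of the 952 RUNX1 peaks at promoters of protein-coding genes (64.8%; 61.7 to 67.8%). A promoter peak is one that the authors' annotation put in the class of transcription start sites (TSSs), which the file headers set at 1250 bp. The members were chosen from measured values, namely the overlap of peaks and their position, so the overlap is given as a description and was not tested. Intervals on shares and medians cover counting error over peaks only.

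HL60 is an established human acute myeloid leukaemia line. Chromatin immunoprecipitation followed by sequencing (ChIP-seq) gave 1 RUNX1 peak list (WT), made in unmodified HL60 cells. SKI peaks came from 2 lists of unmodified cells (WT_1 and WT_2) and 1 list of CRISPR/Cas9 control cells (CTR-1). Of 14 samples, 10 were not analysed here, among them the lists from cells in which SKI was deleted by CRISPR/Cas9, so signal of the SKI antibody that would persist without SKI was not subtracted. The RUNX1 list and the control-cell SKI list are single samples, so no value from either has a replicate check, and the control cells carry a single label from which a clone and a pool cannot be told apart. The RUNX1 list held 5581 peaks and the SKI lists 54841 (WT_1), 14431 (WT_2) and 14019 (CTR-1). The sequencing depth is not given in the sources used here. The number of tags per peak is given, with a median of 56 in the RUNX1 list and of 97, 56 and 61 in SKI WT_1, WT_2 and CTR-1. Peak positions are on hg19, and the fold enrichment of a peak over background is the authors' own value, used only to describe or rank peaks within its list.

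RUNX1 is the DNA-binding subunit of core binding factor, a heterodimer with CBFB that is needed for the formation of blood stem cells and for myeloid maturation, and its gene is often mutated or rearranged in acute myeloid leukaemia. SKI has no sequence-specific DNA binding of its own. It is brought to DNA by partners, the SMADs of the TGF-beta pathway being the best known, and recruits corepressors and histone deacetylases. RUNX proteins read a short core sequence, and they can act as activators or as repressors depending on the cofactors present.

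Promoter sequences of member genes were read from a RefSeq table for GRCh38.p14, which gives 300 bases around a gene's start, 250 before it and 50 after. No peak sequence could be read, because no genome of the peaks' build was used. The RUNX core was searched for as TGTGGT or TGCGGT on both strands (ACCACA or ACCGCA on the other). A RUNX1 summit counted as inside a window by the deposited distance alone, 250 bp before to 50 bp after the nearest annotated start. That start belongs to an Ensembl transcript and can lie kilobases from the RefSeq start, so the peak itself may lie outside the window. Positions of peaks and windows were not compared, since their builds differ. By this rule 18 named member genes had 1 member peak, 1 such window and the summit inside. Of these, 7 held a core and 11 did not. The sequences below are gene windows with and without a core, and they need not be the bases under the RUNX1 peaks. DMWD, a WD-repeat gene, had the highest RUNX1 fold of the 18 (chr19:45792796-45793095, minus strand). VIM, the intermediate filament gene vimentin, combined a core with some of the highest SKI values (chr10:17227991-17228290, plus strand). CRK, an SH2 and SH3 adaptor that links tyrosine kinases to the cytoskeleton, had no core in its window (chr17:1456183-1456482, minus strand). The CRK peak was placed only by its distance to an Ensembl transcript, so this window cannot be read as the sequence of the peak. Each is written 5′ to 3′ on the gene's strand, with RUNX cores in capitals.
DMWD: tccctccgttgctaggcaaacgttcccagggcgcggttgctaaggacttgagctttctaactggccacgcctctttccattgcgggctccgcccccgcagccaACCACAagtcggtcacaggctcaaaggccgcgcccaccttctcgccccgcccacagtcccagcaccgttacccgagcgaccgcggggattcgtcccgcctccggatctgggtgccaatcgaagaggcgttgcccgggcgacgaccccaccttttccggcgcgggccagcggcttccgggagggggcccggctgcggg
VIM: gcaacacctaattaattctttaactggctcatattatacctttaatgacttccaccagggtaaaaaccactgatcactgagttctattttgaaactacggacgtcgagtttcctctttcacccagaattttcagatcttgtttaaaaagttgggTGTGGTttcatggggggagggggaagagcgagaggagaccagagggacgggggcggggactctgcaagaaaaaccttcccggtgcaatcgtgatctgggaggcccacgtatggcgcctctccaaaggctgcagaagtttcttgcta
CRK: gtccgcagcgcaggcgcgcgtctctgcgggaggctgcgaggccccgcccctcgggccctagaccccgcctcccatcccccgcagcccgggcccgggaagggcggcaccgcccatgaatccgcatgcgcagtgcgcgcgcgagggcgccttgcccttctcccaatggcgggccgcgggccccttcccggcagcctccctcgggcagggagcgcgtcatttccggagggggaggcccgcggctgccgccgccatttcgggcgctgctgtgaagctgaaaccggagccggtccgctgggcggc

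In DMWD the core began 147 bases before the RefSeq start, and the RUNX1 peak was listed 137 bp upstream of an Ensembl TSS. In VIM the core began 96 bases before the RefSeq start and the RUNX1 peak was listed 10 bp upstream of an Ensembl TSS. The deposited distance was taken as that of the RUNX1 summit. On chromosome 19 the offset from hg19 peak to GRCh38 window differed by kilobases between DMWD and the Mediator subunit gene MED25. The RefSeq and Ensembl starts can thus be far apart. These distances of core and peak therefore cannot be set against each other, and the counts by summit position rest on the deposited distance only. Short stretches of 30 bases around the first core show a core, TGTGGT or TGCGGT, in promoters with a RUNX1 fold below that of DMWD. They come from IL6R, the interleukin-6 receptor (RUNX1 fold 25.6, core 45 bases before the start), ARHGAP30, a GTPase-activating protein (22.4, 202 bases before), TFAM, the mitochondrial transcription factor (14.5, 133 bases before), and MBD2, a methyl-CpG-binding subunit of a deacetylase complex (10.3, 209 bases before). ARHGAP30 held another core 86 bases before the start.
IL6R: ccggctttcgtaACCGCAccctgggacggc
ARHGAP30: tcacctgctcacACCACAgacgccatcacc
TFAM: aggctagaggatTGCGGTttcccttcatct
MBD2: tgaaacaaactaACCACAgtcactatgaca

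RUNX cores were counted over all member genes with a single RefSeq window. A core stood in 97 of 286 such windows (33.9%; 28.7 to 39.6%), against 2242 of 11785 windows of all protein-coding genes (19.0%; 18.3 to 19.7%). The share differed with the deposited distance of the RUNX1 summit. Among member genes with 1 member peak and a deposited distance within the window, 56 of 110 held a core (50.9%; 41.7 to 60.1%). Among those with a deposited distance outside it, 34 of 161 did (21.1%; 15.5 to 28.1%), a share close to that of all genes. Windows of genes with a promoter SKI peak of a shared site but no promoter RUNX1 peak held a core in 333 of 1782 cases (18.7%; 16.9 to 20.6%). Promoter RUNX1 peaks outside shared SKI sites gave a share like that of the members. It was 37 of 69 windows (53.6%; 42.0 to 64.9%) with the summit placed within and 10 of 79 (12.7%; 7.02 to 21.8%) with it placed outside. These are counts of letters and not of bound sites, and no test was made across genes. Some windows counted as holding the summit may lie kilobases from the peak.

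**Figure D1:**
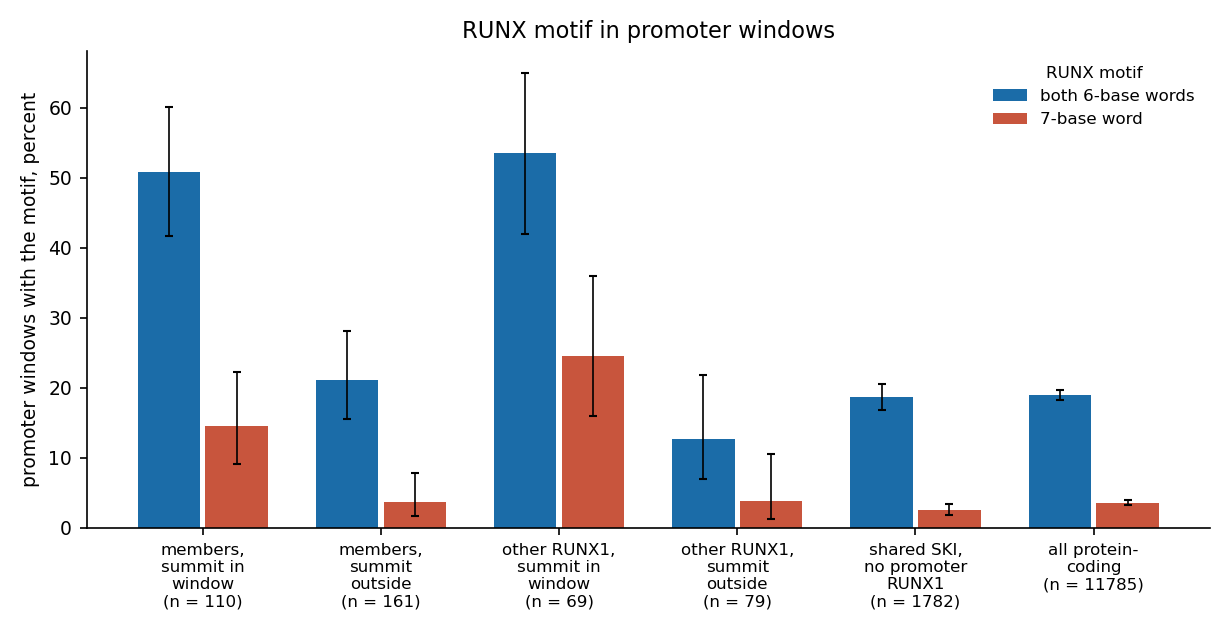
Share of promoter windows that held a RUNX core (blue, TGTGGT or TGCGGT) or its longer form TGTGGTT (red), by gene set, with 95% Wilson intervals as bars and the number of windows under each set. Windows with the RUNX1 summit inside by its deposited distance reached 50.9% in members and 53.6% in the other promoter RUNX1 peaks. All protein-coding genes had 19.0%.

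The longer word TGTGGTT was rarer. It stood in 16 of 110 member windows with the summit inside (14.5%; 9.16 to 22.3%) and in 6 of 161 with it outside (3.73%; 1.72 to 7.89%), against 3.62% of all windows. In the other promoter RUNX1 peaks with the summit inside, 17 of 69 windows held it (24.6%; 16.0 to 36.0%). That share was above the members' share, but the intervals overlapped. Over all windows of each set the word stood in 8.04% for member genes (5.42 to 11.8%) and in 13.3% for genes of the other promoter RUNX1 peaks (8.80 to 19.7%), whereas the core stood in 33.9% and 32.0%. When the 110 member windows were divided into 3 groups by RUNX1 fold, a core stood in 17 of 37 in the lowest group (45.9%), 17 of 36 in the middle one (47.2%) and 22 of 37 in the highest (59.5%; 43.5 to 73.7%). The intervals of these groups overlapped. Windows with a core had a median RUNX1 fold of 18.8 (16.2 to 23.8, n = 56) and those without one of 16.0 (14.9 to 18.3, n = 54), with overlapping intervals. The lower quartiles were 14.2 with a core and 9.57 without, and the upper quartiles 27.8 and 26.1. The median SKI fold was 58.0 with a core and 54.99 without in WT_1 and 14.8 with a core and 10.7 without in WT_2, whereas in CTR-1 it was 13.9 with a core and 16.7 without, so the SKI lists did not share a direction. With the summit placed by its deposited distance, the nearest core lay within 50 bp of it in 25 of the 56 windows that held one (44.6%), at a median of 64.5 bp. Other words had shares on both sides of this. GGGCGG lay within 50 bp in 64.8% of the windows that held it, at a median of 31 bp, and TTGNNNNAA in 50%. The shares were lower for CCAAT (42.9%), TGACG (40%), CAGACA (37.5%), CGGAAG (31.4%) and CACGTG (23.1%). Copies of a word per window were not accounted for, and more copies bring the nearest one closer. These shares therefore do not show whether closeness was particular to the core.

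Other short words were counted in the same windows, on both strands, as a background for the RUNX counts. GGGCGG, the GC box read by SP and KLF factors, stood in 71 of 110 member windows with the summit inside (64.5%) and in 69.2% of all member windows. It stood in 78.4% of windows with shared SKI and no promoter RUNX1 peak and in 58.7% of all windows. TTGNNNNAA, a CEBP-like word, stood in 66 of 286 member windows (23.1%; 18.6 to 28.3%), with 30.9% where the summit lay inside (23.0 to 40.1%) and 17.4% where it lay outside, against 16.7% with shared SKI and no promoter RUNX1 peak and 25.7% of all windows. CAGACA, the SMAD box, stood in 36 of 286 member windows (12.6%; 9.23 to 16.9%), against 13.3% with shared SKI and no promoter RUNX1 peak and 14.5% of all windows. CACGTG, the E-box, stood in 13.3% of member windows (9.84 to 17.7%), against 11.8% with shared SKI and no promoter RUNX1 peak and 8.86% of all windows. GC content had a median of 65.8% in member windows, against 68.3% with shared SKI and no promoter RUNX1 peak and 62.7% in all genes. None of the other words separated windows with the summit inside from all windows as far as the RUNX core did, 50.9% against 19.0%.

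RUNX1 peaks of the members lay near the TSS by the rule that chose them, with quartiles of the deposited distance at -246 and 263 bp. The median deposited distance was -28 bp, with 351 of 617 members upstream (56.9%; 52.9 to 60.7%). Members within 250 bp of the TSS numbered 309 (50.1%), with 199 before it, 109 at it or less than 250 bp after it and 1 at exactly 250 bp after it. Promoter RUNX1 peaks outside shared SKI sites had 159 of 335 within 250 bp (47.5%; 42.2 to 52.8%) and 58.8% upstream, so position alone did not set the members apart. Within 1000 bp there were 86.9% of members (84.0 to 89.3%) and 81.2% of the others (76.7 to 85.0%). The farthest members were ANK2, an ankyrin that anchors membrane proteins, at 1787 bp upstream and PVRL1, the cell adhesion molecule nectin, at 1546 bp downstream. In all, 42 members (6.81%) had a listed distance above the 1250 bp of the class.

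**Figure D2:**
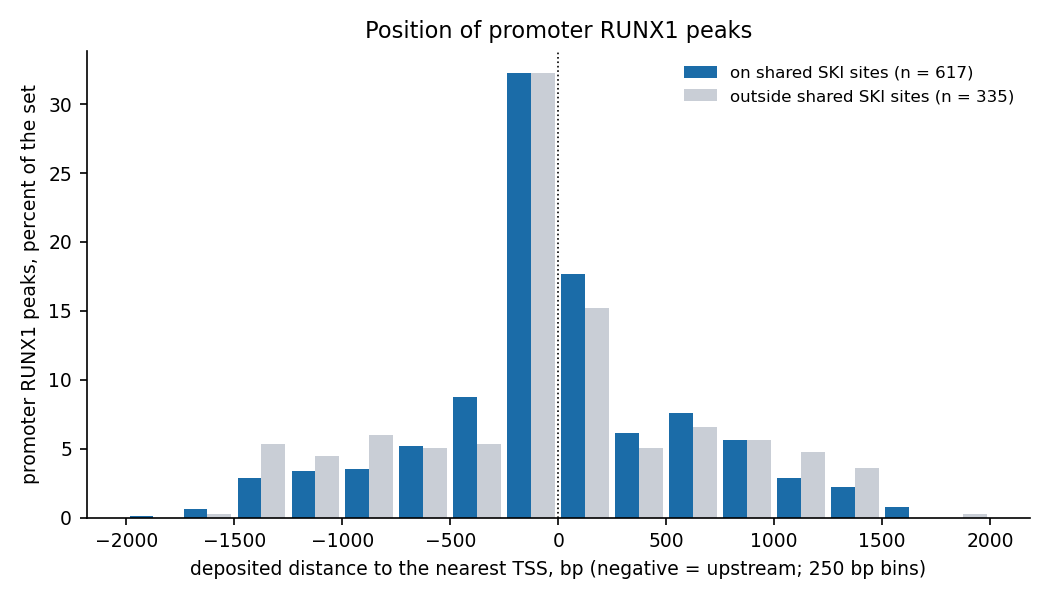
Percent of promoter RUNX1 peaks of protein-coding genes in 250 bp bins of deposited distance to the TSS (negative is upstream), for members (blue, n = 617) and for those outside shared SKI sites (grey, n = 335). Both sets were highest in the bin just upstream of the TSS, which held 199 members.

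Overlap with all 3 SKI lists was common among RUNX1 peaks of every class, which is the background for the members. It held for 3040 of 5581 RUNX1 peaks (54.5%). By class it was 63.7% at TSSs, 60.5% upstream of genes, 62.7% in exons, 49.8% in introns and 49.9% in intergenic positions. Promoter peaks of other biotypes shared it in 219 of 361 cases (60.7%; 55.5 to 65.6%), close to the 64.8% of protein-coding promoters. Of the 335 protein-coding promoter peaks outside shared sites, 177 overlapped 2 SKI lists, 153 overlapped 1 and 5 overlapped none. The list missing most often among the 177 was SKI WT_2 (100 peaks), followed by CTR-1 (41) and WT_1 (36). By single list, 95.4% of the 952 promoter RUNX1 peaks overlapped SKI WT_1, 73.1% WT_2 and 79.2% CTR-1. WT_1 held several times as many peaks as either other SKI list, and when every SKI list was cut to 5581 peaks by −log10 p there were 361 members (37.9%). Just inside the overlap rule lay the members at C12orf75 (12 bp of overlap with CTR-1), ZNF670 (38 bp, WT_2) and ZNF821 (47 bp, WT_2). Just outside it lay peaks at RHOH (46 bp from the nearest CTR-1 peak), NUCB2 (69 bp, CTR-1) and STRN4 (73 bp, WT_2).

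RUNX1 fold at the members had a median of 19.1 (18.0 to 20.7), an interquartile range of 13.1 to 31.3 and a range from 3.80 to 158. The other promoter RUNX1 peaks had a median of 15.9 (14.7 to 17.0), and all RUNX1 peaks one of 18.3. Away from promoters, RUNX1 peaks on shared SKI sites had medians of 21.1 in introns (20.4 to 22.3, n = 1021) and 21.0 between genes (19.7 to 22.0, n = 780). Member RUNX1 peaks were 586 bp wide at the median with 56 tags, against 520 bp and 45 tags in the other promoter RUNX1 peaks. Fold varied with the distance from the TSS. It had a median of 17.5 (16.1 to 18.5) in the 309 members within 250 bp, 20.6 (18.0 to 22.0) in the 227 between 250 and 1000 bp and 27.7 (21.7 to 31.1) in the 81 farther away. Across the 617 members the rank correlation of RUNX1 fold with absolute distance was 0.16, so distance ordered few of them.

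The strongest RUNX1 peaks of the set belonged to a mixed group of genes. HELZ2, a helicase that serves as a nuclear receptor coactivator, had the highest RUNX1 fold, 158 (chromosome 20, 62198618 to 62199789), with SKI fold of 66.6, 13.3 and 19.2 in WT_1, WT_2 and CTR-1. BPI, a bactericidal protein of neutrophil granules, followed with 153 (chromosome 20, 36931781 to 36932907) and SKI fold of 84.1, 25.6 and 58.1. HELZ2 was thus near the middle of the members for SKI, ranking 285, 333 and 310 of 617 in the 3 lists, while first for RUNX1. SYT12, a synaptotagmin-family gene, had a RUNX1 fold of 151, BCL3, an atypical inhibitor-family partner of NF-kappaB, one of 149, and CTTN, the actin-binding protein cortactin, one of 144. DMWD (117), the sterol enzyme gene CYP51A1 (114), C16orf54 (114), the zinc finger gene ZNF627 (111) and AE000662.92 (105) completed the top 10. At the other end were a histone H4 gene, HIST1H4B (3.80), the respiratory complex I gene NDUFS7 (4.27), the ESCRT ATPase gene VPS4B (4.76), the tryptophanyl-tRNA synthetase gene WARS (5.34) and the peroxiredoxin gene PRDX6 (5.41). Their RUNX1 peaks held 35 to 39 tags, against 306 at HELZ2 and 440 at BPI. The widest RUNX1 peak, 1621 bp, lay at BHLHE40, a transcriptional repressor gene.

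SKI at the members was high compared with other promoters on shared SKI sites. The median SKI fold at the members was 62.5 (60.4 to 66.6) in WT_1, against 36.2 (35.4 to 37.1, n = 3201) at promoter SKI peaks of shared sites without a RUNX1 peak. In WT_2 it was 14.1 (13.3 to 15.2) at members, against 9.49 (9.28 to 9.68, n = 3925), and in CTR-1 19.4 (17.9 to 21.0), against 10.2 (10.0 to 10.4, n = 3634). In every list the intervals of the medians did not overlap. Both sets lay on joined sites with a peak in all 3 SKI lists, but they were not chosen alike. A member's RUNX1 peak had to overlap a peak of each list, and the highest fold was used. In the other set every promoter SKI peak of a joined site was counted, whether or not it overlapped a peak of each list. The part of this in the difference was not tested. SKI peaks at the members were also wider, with medians of 2099, 589 and 918 bp in WT_1, WT_2 and CTR-1, against 1910, 528 and 769 bp at the promoter SKI peaks without RUNX1. A wider peak is more likely to overlap a RUNX1 peak, and the part of width in the difference was not tested.

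The same order appeared when promoter SKI peaks were ranked. The median member stood at the 76.4th, 73.3rd and 81.7th percentile of promoter SKI peaks of shared sites in WT_1, WT_2 and CTR-1. Of the 100 strongest promoter SKI peaks of shared sites, 46 in WT_1, 51 in WT_2 and 69 in CTR-1 overlapped a RUNX1 peak, against 17.5%, 14.0% and 15.2% of all such SKI peaks. Among the 500 strongest the shares were 42.8%, 36.8% and 51.6%. Compared with shared sites away from promoters the members were not higher. Intronic RUNX1 peaks on shared sites had median SKI folds of 72.2, 15.9 and 19.6 in WT_1, WT_2 and CTR-1, and intergenic ones of 72.3, 15.5 and 20.2, so the WT_1 and WT_2 medians of the members lay below these and the CTR-1 median was close to them.

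The 3 SKI lists ordered the members alike, and the RUNX1 list ordered them less alike. Rank correlations between SKI lists over the 617 members were 0.715 (WT_1 with WT_2), 0.677 (WT_1 with CTR-1) and 0.717 (WT_2 with CTR-1). RUNX1 fold correlated with SKI fold at 0.354 in WT_1, 0.266 in WT_2 and 0.340 in CTR-1. These are descriptions across peaks of single lists, not across samples, and the points share the library of each list. Among the 314 members of middle RUNX1 width the correlations of RUNX1 with SKI were 0.378, 0.241 and 0.374. With the members split into 4 equal groups by RUNX1 fold, median SKI fold was 82.0 in the highest group and 52.8 in the lowest in WT_1, 19.2 and 11.3 in WT_2, and 28.2 and 14.2 in CTR-1.

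**Figure D3:**
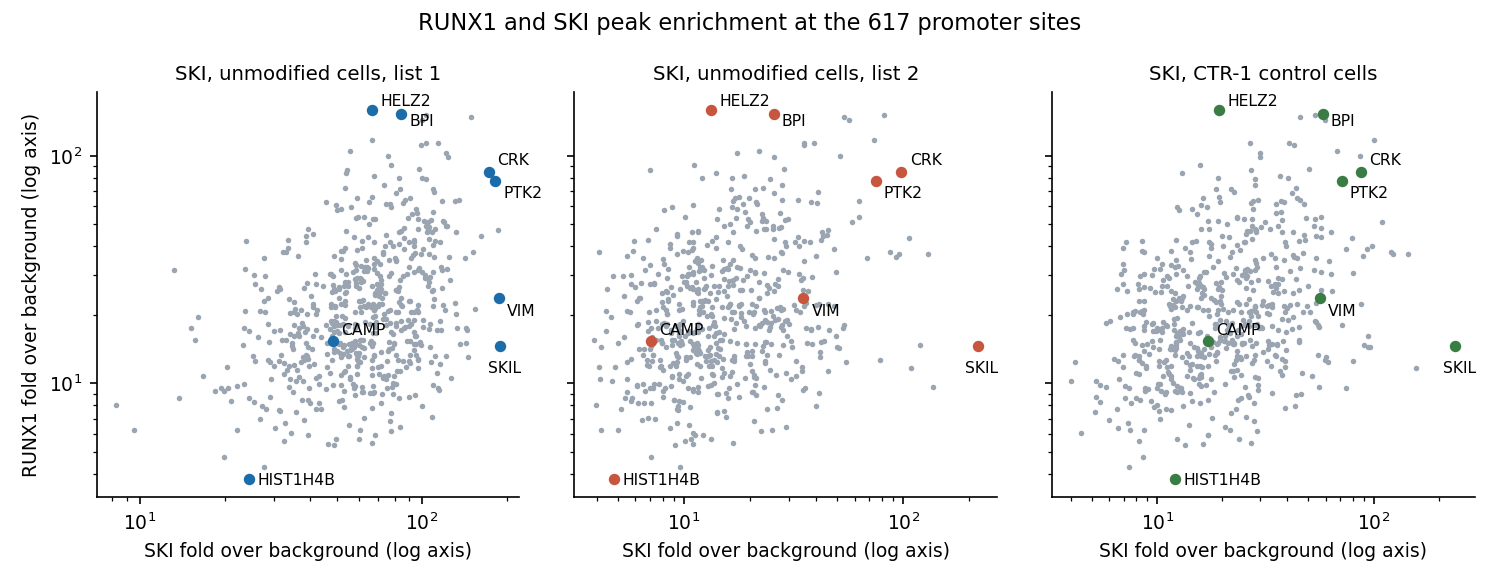
RUNX1 fold against SKI fold at the 617 members in each SKI list, both on log axes, with each point a RUNX1 peak and named genes coloured. CRK and PTK2 were high in both, HELZ2 was first for RUNX1 with SKI near the middle of the members, and SKIL had the highest SKI fold with a RUNX1 fold of 14.7.

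A small set of promoters ranked high in all 4 lists. CRK came first by its worst rank, with a RUNX1 fold of 85.2 (chromosome 17, 1366411 to 1366950) and SKI folds of 173, 98.1 and 87.2 in WT_1, WT_2 and CTR-1, so that its lowest rank was 17 of 617. PTK2, the gene of focal adhesion kinase, came second, with a RUNX1 fold of 77.5 and SKI folds of 182, 74.8 and 71.2. The RUNX1 and SKI summits at CRK lay 8, 18 and 17 bp apart in the 3 lists, and those at PTK2 5, 27 and 2 bp. BCL3 (RUNX1 fold 149; SKI folds 149, 53.6 and 45.8) and SYT12 (151; 104, 81.8 and 53.8) joined them from the RUNX1 top 10, as did CTTN (144; 99.9, 56.7 and 59.7) and C16orf54 (114; 103, 39.2 and 40.5). SMG6, an endonuclease of nonsense-mediated decay, NDRG1, a stress and differentiation response gene, AC018816.3 and RUNX1 itself completed the 10. PTK2 and NDRG1 both lie on chromosome 8, which held 5 of the 617 members. Copy number was not examined here, and its part in ranks that are high in all 4 lists was not tested. At the RUNX1 gene the peak lay at an annotated start (48 bp downstream; chromosome 21, 36420934 to 36422041), with a RUNX1 fold of 42.4 and SKI folds of 112, 35.2 and 45.5.

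The orders of RUNX1 and SKI parted at a number of promoters, which were picked after their values were seen. SKIL, which encodes SnoN, a SKI-family corepressor, and is a target of TGF-beta signalling, had the highest SKI fold of all members in every list, 189, 218 and 239 in WT_1, WT_2 and CTR-1. Its RUNX1 fold of 14.7 ranked 418 of 617. VIM had SKI folds of 187, 35.1 and 56.3, the first of which was the second highest of all members in WT_1, with a RUNX1 fold of 23.8. SIRPB2, a signal-regulatory protein gene (RUNX1 fold 7.94; SKI folds 100, 40.1 and 43.1), and CTNND1, the catenin gene p120 (11.7; 97.2, 109 and 158), likewise had high SKI and low RUNX1. The reverse held at SEMA4D, a semaphorin gene (RUNX1 fold 42.2; SKI folds 23.8, 5.93 and 8.46), at the adenosine receptor gene ADORA2A (39.2; 33.5, 8.64 and 6.91) and at the Mediator subunit gene MED25 (37.7; 33.1, 4.12 and 8.72).

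RUNX1 and SKI summits lay close together at most members. The median distance between them was 34 bp (31 to 39) in WT_1, 37 bp (31 to 42) in WT_2 and 39 bp (35 to 43) in CTR-1, against a median RUNX1 peak width of 586 bp. Summits were within 100 bp in 71.8%, 74.1% and 74.4% of members, and in all 3 lists in 358 of 617 (58.0%; 54.1 to 61.9%). The RUNX1 summit lay inside the SKI peak in all 617 members for WT_1, in 602 for WT_2 and in 611 for CTR-1. Intronic and intergenic RUNX1 peaks on shared sites had medians of 28 to 36 bp over the 3 lists, so closeness was not confined to promoters. It went with RUNX1 strength. Of 4 equal groups by RUNX1 fold, the highest had median distances of 28, 25.5 and 28 bp in WT_1, WT_2 and CTR-1, and the lowest 83, 63 and 82 bp. RUNX1 peak width had medians of 626.5 bp in the highest group and 593 bp in the lowest, and the part of summit precision in this pattern was not tested.

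**Figure D4:**
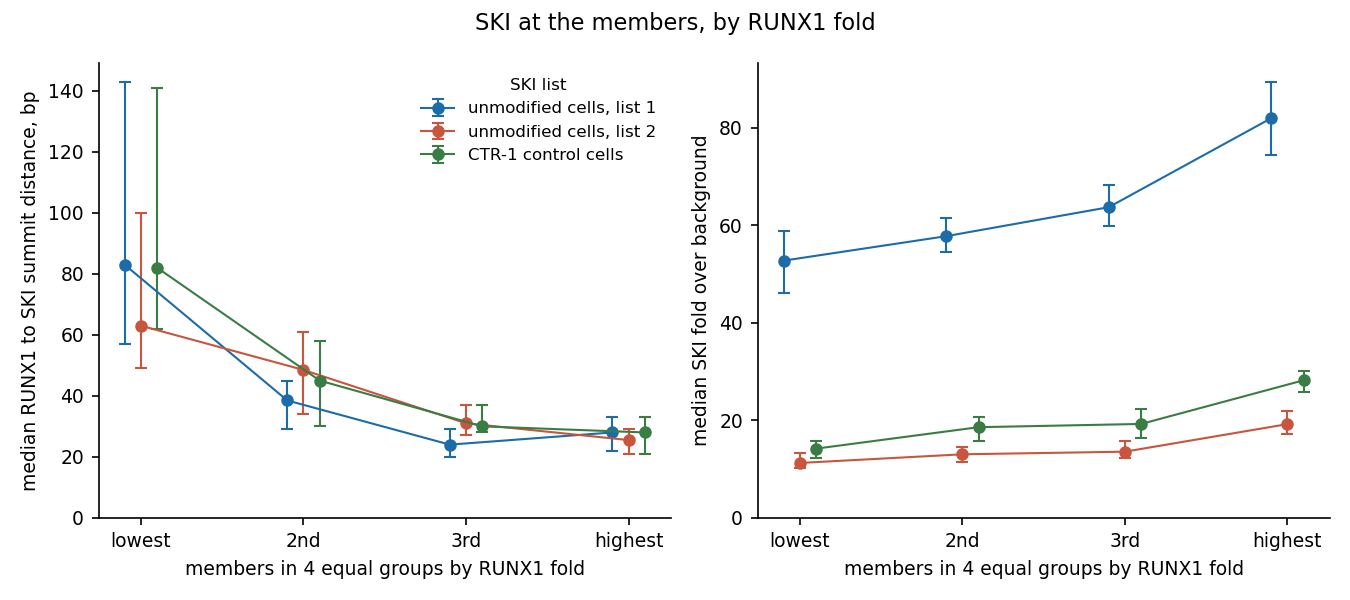
Members in 4 equal groups by RUNX1 fold, lowest to highest (154 or 155 peaks each), with the median RUNX1 to SKI summit distance in bp on the left and the median SKI fold on the right, for each SKI list. Bars are 95% intervals of the median. Distances were 63 to 83 bp in the lowest group and 25.5 to 28 bp in the highest.

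Summits far apart were few and came from single lists in part. PRAM1, an adaptor gene induced by retinoic acid in myeloid cells, had its RUNX1 summit 4118 bp from the SKI summit in WT_1, but 69 and 88 bp from those of WT_2 and CTR-1. OSM, the cytokine oncostatin M, differed by 1327 and 1332 bp in WT_2 and CTR-1 and by 10 bp in WT_1. At DACH1, a gene of the SKI and DACH homology family, the distances were 3 bp in WT_1, 861 bp in WT_2 and 2557 bp in CTR-1.

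The 617 members were assigned to 582 genes, of which 551 had 1 member peak, 28 had 2, 2 had 3 and 1 had 4. Member peaks that lie on the same SKI site are not separate SKI measurements, and 19 of the 597 SKI sites held more than 1. ITGB2, the common beta chain of the leukocyte integrins, had 4 member peaks along chromosome 21 between 46334084 and 46351461. Their RUNX1 folds were 15.5, 16.6, 15.1 and 27.3 in order of position, with SKI WT_1 folds of 60.5, 67.3, 67.3 and 69.3, WT_2 folds of 8.84, 10.4, 9.43 and 7.04 and CTR-1 folds of 12.7, 21.6, 28.8 and 34.9. The 2 middle peaks shared 1 SKI peak in WT_1. At ATG16L2, a relative of the autophagy gene ATG16L1, 3 RUNX1 peaks (folds 16.9, 40.1 and 14.0) stood within 1 SKI peak in WT_1 (94.0) and 1 in CTR-1 (39.5) but matched 3 separate SKI peaks in WT_2 (11.6, 33.5 and 11.0). There the strongest RUNX1 peak and the strongest SKI peak were the same one. MOB3A, a MOB kinase activator family gene, had 3 member peaks at different annotated starts, with RUNX1 folds of 64.1, 16.2 and 10.4. Paired members at CCND3, the cyclin D3 gene (72.0 and 23.1), PRR5L (71.4 and 40.7), C11orf21 (31.7 and 81.6) and CTB-133G6.1 (61.5 and 44.9) shared 1 SKI WT_1 peak each.

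Member genes were compared with gene lists by count. Of 20052 RefSeq protein-coding symbols, 561 (2.8%) had a member peak. Among the 3752 symbols with a promoter SKI peak of a shared site, which were 18.7% of all, 558 had one (14.9%), and the counts below are read against that. Retinoic acid response genes had a member in 5 of 11 (45.5%; 21.3 to 72.0%) and myeloid maturation genes in 7 of 16 (43.8%; 23.1 to 66.8%), both with intervals above 14.9%. Corepressor subunits had one in 5 of 15 (33.3%; 15.2 to 58.3%). At the low end, splicing genes had none in 13, TGF-beta and SMAD genes 1 in 18 (5.56%; 0.988 to 25.8%) and cell cycle genes 1 in 14, with intervals that held 14.9%. The lists are small and were drawn up with earlier results of these data known, so the counts describe them and no test was made. With SKI lists held to 5581 peaks, 4 myeloid maturation and 3 retinoic acid response genes had a member.

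**Figure D5:**
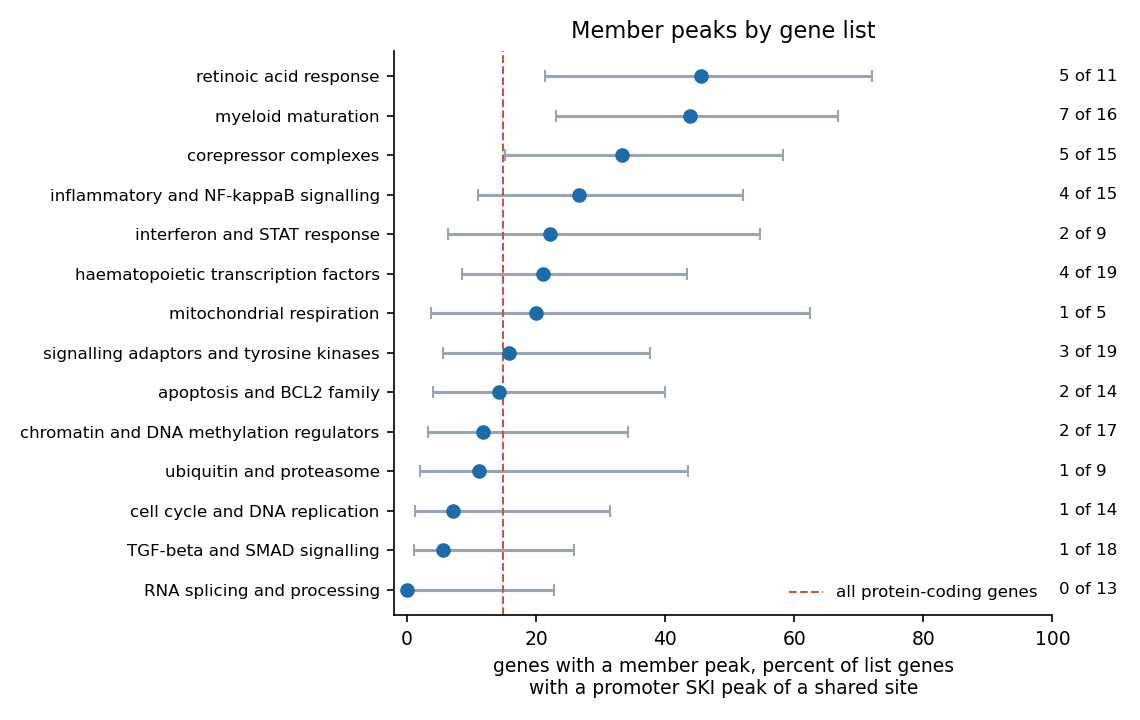
Percent of genes with a member peak among list genes that had a promoter SKI peak of a shared site, with 95% Wilson intervals and counts at the right, for the reported lists with at least 5 such genes. The dashed line marks all protein-coding genes (14.9%), and the retinoic acid and myeloid lists lay highest at 45.5% and 43.8%.

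The 7 myeloid maturation genes encode granule and surface proteins of neutrophils and monocytes. AZU1, the granule protein azurocidin, had the highest RUNX1 fold among them (79.8; chromosome 19, 823582 to 824153), with SKI folds of 82.8, 12.03 and 19.0 in WT_1, WT_2 and CTR-1. TYROBP, the signalling adaptor DAP12, had 28.6 for RUNX1 and 126, 34.2 and 29.3 for SKI. CD63, a granule membrane tetraspanin (24.5), the Fc receptor gene FCGR2A (21.8), CTSG, cathepsin G (17.5), and CAMP, the cathelicidin precursor (15.3), lay nearer the median RUNX1 fold of the members, 19.1. For SKI in WT_2 TYROBP was the sole one of the 7 above the member median of 14.1. The others lay below it, from 7.04 at 1 of the ITGB2 peaks to 12.03 at AZU1. The other lists differed. In WT_1 CTSG (36.8), CAMP (48.35) and 1 ITGB2 peak (60.5) lay below the member median of 62.5, and the rest above it. In CTR-1 TYROBP, FCGR2A (34.1) and ITGB2 peaks of 21.6, 28.8 and 34.9 lay above the member median of 19.4. AZU1, CD63, CTSG, CAMP and the ITGB2 peak of 12.7 lay below it. MPO, myeloperoxidase, had a promoter RUNX1 peak outside the shared SKI sites.

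Retinoic acid response genes with a member were CD38, RARA, ASB2, UBA7 and PRAM1. CD38, an ectoenzyme induced by retinoic acid in HL60 cells, had a RUNX1 fold of 35.7 (chromosome 4, 15780524 to 15780987) and SKI folds of 80.6, 68.4 and 54.0 in WT_1, WT_2 and CTR-1, all above the member medians. RARA, the retinoic acid receptor alpha gene, had 22.4 for RUNX1 and 51.8, 20.4 and 44.3 for SKI, the first of these below its member median of 62.5. ASB2, a ubiquitin ligase subunit (17.9), UBA7, the ISG15-activating enzyme (17.6), and PRAM1 (13.2) had RUNX1 folds under the member median of 19.1.

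Corepressor subunit genes with a member were TBL1X, HDAC5, RCOR1, RCOR3 and MBD2. TBL1X, a subunit of the NCOR and SMRT complexes, had a RUNX1 fold of 47.4 and SKI folds of 186, 45.5 and 28.7. HDAC5, a class IIa deacetylase (14.7), the REST corepressors RCOR1 (13.2) and RCOR3 (11.8), and MBD2 (10.3) had RUNX1 folds below the member median.

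Haematopoietic transcription factor genes with a member were RUNX1, LYL1, ETV6 and MYB, 4 of 19 with a promoter SKI peak of a shared site (21.1%; 8.51 to 43.3%). RUNX1 had 2 member peaks near different annotated starts, with RUNX1 folds of 42.4 and 51.8. LYL1, a basic helix-loop-helix factor of blood progenitors (12.3), ETV6, an ETS-family repressor (10.6), and MYB, a factor of progenitor proliferation (8.94), had RUNX1 folds below 19.1, while their SKI folds in WT_1 were 90.7, 126 and 78.8, above the member median of 62.5. LYL1 and ETV6 were also above the member medians in WT_2 (23.4 and 21.2) and CTR-1 (27.4 and 29.2). MYB was at the median in WT_2 (14.1) and below it in CTR-1 (10.9). GFI1 and JUNB had promoter RUNX1 peaks outside shared sites.

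Of the TGF-beta and SMAD genes SKIL was the sole one with a member. ACVR2A, SKI, SMAD2, SMAD7 and TGIF1 had a promoter RUNX1 peak that missed 1 or more SKI lists, so promoter RUNX1 peaks were present in this list and the overlap with every SKI list was at SKIL. With SKI WT_1 left out the list had 3 genes with a member, and with WT_2 left out 2. In the NF-kappaB list, members were IL6R (25.6), NFKB2, a precursor subunit (18.4), the adhesion receptor gene ICAM1 (13.8) and NFKBIA, the inhibitor IkB-alpha (13.3), 4 of 15. Interferon and STAT genes had 2 of 9, IFNGR1, an interferon-gamma receptor chain with 2 peaks (11.0 and 5.61), and STAT6 (10.7). Adaptors and kinases had 3 of 19, CRK, PTK2 and CSK, a kinase that restrains SRC-family kinases (32.5). Chromatin regulators had 2 of 17, the histone demethylase gene KDM6B (19.1) and the acetyltransferase gene EP300 (12.3). Apoptosis genes had 2 of 14, CFLAR (32.0) and CASP8 (13.8), both of the death receptor pathway.

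Lists for other processes and cell types had few members. Cell cycle had CCND3, ubiquitin and proteasome genes USP15 (20.1) and mitochondrial genes TFAM (14.5). Marker lists of other cell types had 0 or 1 gene with a member each, on a scale where 2.8% of all symbols had one. Erythroid and megakaryocytic genes had 0 of 26, neuronal genes 0 of 28 (1 with SKI WT_2 left out), B and T lymphoid genes 1 of 30 (CCR7, a chemokine receptor gene with 2 peaks at 10.9 and 9.92), and liver and muscle genes 1 of 28 (CYP2E1, a cytochrome P450 gene with 2 peaks at 14.8 and 9.51). Few genes of these lists had a promoter SKI peak of a shared site, and of those that did 0 of 3 erythroid and megakaryocytic, 0 of 3 neuronal, 1 of 3 lymphoid and 1 of 2 liver and muscle genes had a member, too few to read against 14.9%. Myeloid maturation genes had 7 of 36 among all matched genes, 19.4%, against 2.8% of all symbols.

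A part of the member genes carried further RUNX1 peaks. Of 582 genes, 146 (25.1%) had at least 1 further RUNX1 peak assigned to them, a share that was not counted for other genes. Of the 582, 92 (15.8%) had one of another class that also lay on a shared SKI site. Genes of promoter RUNX1 peaks outside shared sites had this in 37 of 294 cases (12.6%), close to the members. The further peaks on shared sites were 71 in introns, 21 between genes, 19 in exons and 10 upstream. MBP, the myelin basic protein gene, had the most, 5, with RUNX1 folds from 6.87 to 41.4. The RUNX1 gene had 4, with folds from 35.7 to 104, the highest of them above both of its promoter peaks. MICAL2, an actin-oxidising enzyme gene, GRAMD4 and IFNGR1 had 3 each.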

How the data were processed

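Of the HL60 ChIP-seq samples, 4 peak lists were analysed and grouped by sample title, and the other 10 samples were not analysed here. Chromatin was, per the labels' protocols, crosslinked with formaldehyde and sonicated. The submitters' processing notes name bcl2fastq, Bowtie2, MACS 1.4 and deepTools with the builds hg19 and GRCh37, but not what each tool was used for, nor which control library each ChIP was set against. Every sample has its own peak list. The columns used were, per the file headers, the deposited −log10 p-value, the fold enrichment (a ratio to background) and the tag count of each peak, as MACS gave them. No use was made of the FDR column, whose scale no source states. The class of each peak, its nearest Ensembl transcript and the strand-aware TSS distance are the authors' deposited annotation.

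A RUNX1 peak was a member when it had the TSS class, a protein-coding nearest gene and at least 1 bp of overlap with a peak of each SKI list. Where several peaks of a SKI list overlapped it, the highest fold and the nearest summit were used. SKI peaks that overlapped were joined into sites. Shares carry 95% Wilson intervals, and medians carry 95% intervals from order statistics. No test was run. The members, the gene lists and the motifs were chosen with earlier results of these data known. The text names the 10 members with the smallest worst rank over the 4 lists, the 10 of highest and 5 of lowest RUNX1 fold, members of each gene list (up to 5 by RUNX1 fold, with others given after their values were seen), genes with several members, the extremes of width and distance, and 3 peaks on each side of the overlap rule. Gene names were matched to RefSeq symbols, directly or by synonym, for 561 of 582 member genes (96.4%). At least 1 promoter window was found for 468 of these, and genes with a single window were used. Some members and 2 of the 20 gene lists are not reported here. Overlap and motif counts were checked on simulated data. Alternatives were leaving out each SKI list, a stricter threshold, SKI lists of equal length, other overlap rules, a distance in place of the class and other motif forms. The software was pandas 2.3.3, numpy 2.4.6, scipy 1.17.1 and matplotlib 3.10.9 under Python 3.11.15.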

Additional observations from a re-analysis of the deposited data

How the results depend on the processing

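Leaving out each SKI list in turn gave 653 to 717 members and 68.6 to 75.3% of the 952 promoter peaks, against 617 and 64.8% with all 3. Leaving out lists gave SKI medians of 60.1 to 60.8 in WT_1 and 17.2 to 19.5 in CTR-1, against 62.5 and 19.4. SKI lists held to the 5581 peaks of highest −log10 p gave the largest change, with 361 members (37.9%), a median RUNX1 fold of 21.4 and median SKI folds of 76.1 in WT_1, 21.0 in WT_2 and 27.8 in CTR-1. The cut kept fewer SKI peaks, those of highest −log10 p, and the part of this in the RUNX1 median was not tested. A −log10 p of at least 10 in every list gave 60.3%, and cover of at least 50% of the RUNX1 peak 61.4%. The share of windows with a RUNX core, 33.9%, was 16.1% for TGTGGT alone and 8.04% for TGTGGTT. It was 50.9% with the summit in the window by its deposited distance. An alternative chosen after seeing the data, any of several windows, gave 40.6%. Summit distances and the share upstream stayed within their own intervals under every alternative run. Of 160 gene list counts, 147 stayed within 1.5 times, 10 were lower and 3 higher. With lists of equal length myeloid maturation had 4 genes and retinoic acid response 3, against 7 and 5, and without WT_SKI replicate 1 TGF-beta had 3, against 1. No paired analysis was possible because RUNX1 and SKI in control cells have 1 list each and no test was run. Depth is not given, so weak peaks that a deeper library would list cannot be counted.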
